A study of Mus musculus with 6 samples.

Results

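Transcripts of glycolysis and of the hypoxia response were followed across 6 single-colour arrays of mouse skin. The set was chosen by name: 33 genes were listed, and a gene became a member when at least 1 probe set of the array was annotated with that gene alone. This gave 29 members out of the 12394 genes that the array names in this way. Gpi1, Eno1, Bnip3l and Ankrd37 had no such probe set and have no values here. Ero1l is named Ero1a in the annotation and is called so here, and Gapdh is represented by the array's own Gapdh control probe sets.

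The skin came from C57BL/6 mice that carried a subcutaneous pump for 7 days. The pump delivered PBS as the control, IL-13, TSLP or TGF-beta. Skin at the pump outlet was taken in every case (PBS local, IL-13, TSLP, TGF-beta), and abdominal skin far from the outlet was taken under PBS (PBS distal). TGF-beta has 2 arrays, labelled mouse 1 and mouse 2, and each of the other 4 groups has 1 array. Sex, age and cytokine dose are not given in the sources used here, nor is it said whether the PBS pieces came from the same mouse. Every outlet sample shares the implanted pump, and PBS distal differs from PBS local in body site as well as in distance from the pump.

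Glycolysis splits glucose into pyruvate in the cytosol and yields ATP without oxygen, and lactate dehydrogenase then regenerates the NAD that the pathway consumes. Hypoxia-inducible factor 1, whose oxygen-regulated subunit is encoded by Hif1a, is a transcription factor that is hydroxylated and degraded when oxygen is plentiful and that otherwise raises transcription of glucose transporters, most glycolytic enzymes and angiogenic factors. In skin, keratinocytes rely heavily on glycolysis, activated neutrophils and macrophages switch towards it, and skeletal muscle expresses its own isoforms of several of the enzymes. In whole skin, fewer cells of a type and less RNA per cell cannot be told apart.

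Hypoxia-inducible factor binds a short core, ACGTG or GCGTG. The 250 bases before the RefSeq start (build GRCm38.p6) are shown for the members that were at least 2-fold higher on the IL-13 array and for Egln3, since the results turn on these genes. Each core match on either strand is in capitals (on the other strand the cores read CACGT and CACGC). The Slc2a1 window is chr4:119108495-119108744 on the plus strand, the Adm window chr7:110627407-110627656 on the plus strand, the Ero1a window chr14:45318573-45318822 on the minus strand, and the Egln3 window chr12:54203875-54204124 on the minus strand.
Slc2a1: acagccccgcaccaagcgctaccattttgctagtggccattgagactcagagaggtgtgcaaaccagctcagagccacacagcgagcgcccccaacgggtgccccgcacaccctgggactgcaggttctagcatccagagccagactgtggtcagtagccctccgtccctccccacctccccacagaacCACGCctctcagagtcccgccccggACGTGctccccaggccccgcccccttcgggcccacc
Adm: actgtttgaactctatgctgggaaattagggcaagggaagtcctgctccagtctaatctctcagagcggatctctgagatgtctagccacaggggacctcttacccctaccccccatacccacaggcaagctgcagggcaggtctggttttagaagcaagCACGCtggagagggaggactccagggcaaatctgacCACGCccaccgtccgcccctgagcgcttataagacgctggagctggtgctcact
Ero1a: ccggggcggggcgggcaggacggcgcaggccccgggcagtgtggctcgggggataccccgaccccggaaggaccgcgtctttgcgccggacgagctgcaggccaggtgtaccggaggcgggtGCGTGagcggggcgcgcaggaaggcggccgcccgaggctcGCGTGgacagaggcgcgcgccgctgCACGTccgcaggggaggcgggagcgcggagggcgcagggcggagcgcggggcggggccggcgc
Egln3: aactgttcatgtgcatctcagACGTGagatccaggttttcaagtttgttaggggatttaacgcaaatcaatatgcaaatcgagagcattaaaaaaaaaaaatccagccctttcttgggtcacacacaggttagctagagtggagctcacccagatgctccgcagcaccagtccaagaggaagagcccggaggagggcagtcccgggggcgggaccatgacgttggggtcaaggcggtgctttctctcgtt
Slc2a1 and Adm held 2 matches each, Ero1a 3 and Egln3 1. Promoters were found for 26 of the 29 members (not for Slc2a3, Hmox1 and Ndrg1), and 30 of their 38 windows, 78.9%, held a match, against 50.6% of the 12567 windows of all genes on the array and 38.6% of all 32851 windows. Tpi1 and Eno2 held no match in this window. A match to 5 letters is a description of the sequence and not a bound site. The list was chosen by name for glycolysis and the hypoxia response, so the shares describe that choice and are no result of the arrays.

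Values below are signals of the MAS5 algorithm, scaled to a common trimmed mean, and differences are in log2(signal + 27.4), where 1 unit is 2-fold. The offset makes differences of dim genes smaller than the change in signal. A member counts as past the filter when 1 of the compared arrays reached a signal of 165, the median of all values. On all 6 arrays 23 members did so, while Slc16a3, which exports lactate, and the neuronal enolase Eno2 were below it everywhere, at most at 52.4 and 50.7. Signals of different genes are not compared, since probe sets differ in brightness. Where groups have 1 array each, no error can be given.

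Array medians ran from 160 to 171 after the scaling, which makes them alike by design. The ratio of the 3' to the 5' Gapdh probe set, a measure of RNA quality, ran from 0.748 to 0.84. All 6 keratinocyte markers were past the filter, Krt14 at 5886 to 8745, and so were all 9 skeletal muscle markers, Ckm at 7029 to 13169, so the pieces held muscle as well as epidermis. The hair follicle markers summed to 37073 on the array of TGF-beta mouse 2 and to between 103 and 2222 on the other 5.

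Under IL-13, the glucose transporter gene Slc2a1, the oxidoreductase gene Ero1a and the vasodilator peptide gene Adm were at least 2-fold higher than in PBS local skin, and 0 members were at least 2-fold lower. These 3 were among 27 members past the filter, and 1.12% of all genes were that much higher, with 0.41% that much lower. Over all 29 members the median difference was 0.28, against -0.05 over all 12394 genes. Above 0 lay 20 members, where 5325 of the 12394 genes did. By role, the median was 0.69 over the 3 transporters, 0.55 over the 7 hypoxia targets and 0.31 over Hif1a and its hydroxylases, while of the 14 glycolytic enzymes 7 lay above and 7 below 0. No test exists for 1 array against 1. As an alternative, limma fitted with the error of the TGF-beta pair alone called 0 members and 0.0% of genes, with a lowest member adjusted p of 0.901, and 4 members (Slc2a1, Slc2a3, Ndrg1 and Ero1a) were at an unadjusted p under 0.05, where 3.85% of all genes were.

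Slc2a1 encodes the ubiquitous basal glucose transporter. Its signal was 720.5 in PBS local, 1789.6 under IL-13, 1003 under TSLP, 1149 and 1053 in the TGF-beta mice and 1021 in PBS distal. IL-13 stood above all the others, PBS local stood below them, and the remaining 4 arrays lay close together. The difference from PBS local was 1.28 under IL-13, and the gene's 2 other probe sets gave 1.10 and 0.61. Against PBS distal in place of PBS local, the IL-13 difference was 0.79 and no longer 2-fold, and with the mean of its probe sets it fell just short of 2-fold.

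Slc2a3, the high-affinity glucose transporter of neurons and leukocytes, had a signal of 219 in PBS local, 372 under IL-13, 377 under TSLP, 249 and 209 under TGF-beta and 119.5 in PBS distal. The IL-13 and TSLP arrays were the highest and nearly equal, and distal skin was the lowest. Differences from PBS local were 0.69 under IL-13, 0.71 under TSLP and -0.75 in distal skin, and the other probe set that passed the filter gave 0.47, 0.54 and -0.59. Against PBS distal the IL-13 and TSLP differences were 1.44 and 1.46, both at least 2-fold. The paralogs thus differed in order: Slc2a1 was above PBS local in distal skin by 0.49, where Slc2a3 was below it.

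The sum of the neutrophil markers was likewise lowest in distal skin, but its order on the other arrays differed from that of Slc2a3. The 10 neutrophil markers summed to 5759 in PBS local, 12576 under IL-13, 8124 under TSLP, 8204 and 8220 under TGF-beta and 1207 in PBS distal, with 3 of the 10 below the filter on every array. The 9 macrophage markers summed to 47381, 55449, 47107, 54789, 49341 and 37373 in the same order, with none below the filter everywhere. Of them, 3 neutrophil markers (S100a8, S100a9 and Mmp9) and 1 macrophage marker (Cd14) were at least 2-fold higher under IL-13 than in PBS local. Mmp9 passed the filter in this comparison through the IL-13 array alone. The lists were not uniform: S100a8 alone gave 6777.5 of the neutrophil sum under IL-13, the granule genes Camp and Lcn2 were at 0.18 and 0.16, and Ngp and Ltf were at -0.50 and -0.15. The hair follicle markers, which summed to 103 in PBS local, summed to 2222 under IL-13. All 7 were at least 2-fold higher there, by 1.06 to 4.76. Of these, 4 were past the filter, each through the IL-13 array alone. The part of these cells in the values of Slc2a1, Slc2a3, Ero1a and Adm was not tested.

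**Figure D1:**
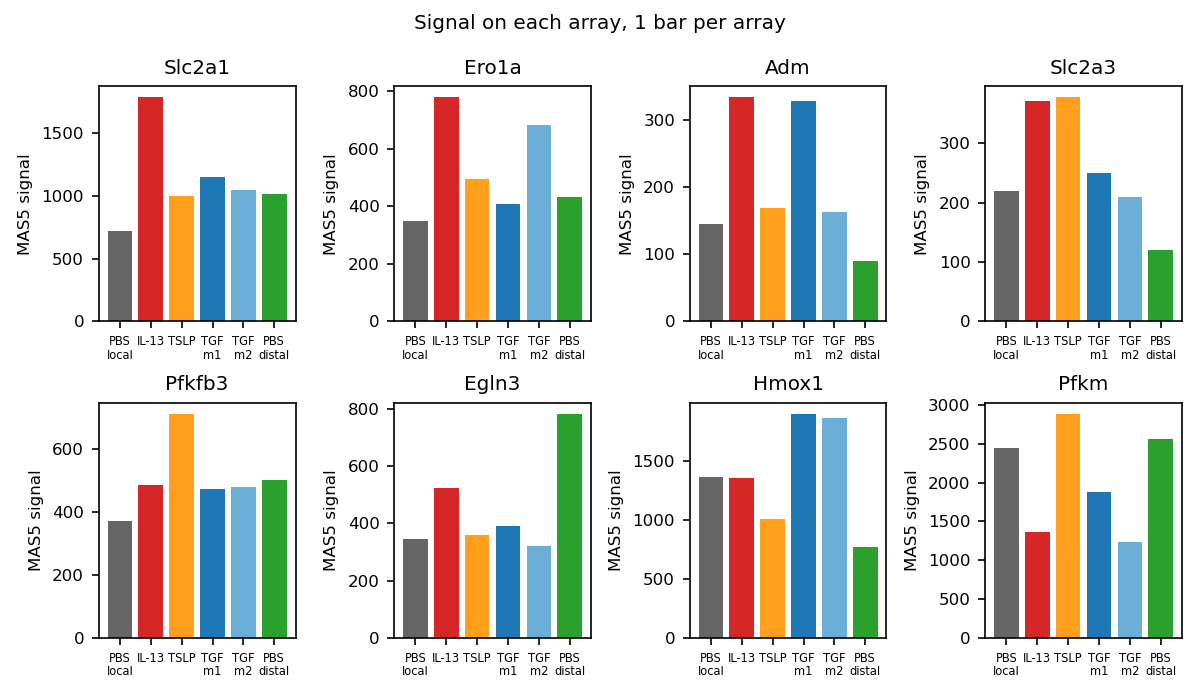
Scaled MAS5 signal of 8 members on each of the 6 arrays (linear axis from 0, 1 bar per array; TGF m1 and m2 are the TGF-beta mice). Slc2a1 and Ero1a are highest under IL-13, Adm is high under IL-13 and in TGF-beta mouse 1, Pfkfb3 is highest under TSLP and Egln3 in PBS distal.

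Among the hypoxia targets, Ero1a, which reoxidises protein disulfide isomerase in the endoplasmic reticulum, had a signal of 347 in PBS local, 779 under IL-13, 496 under TSLP, 409 and 682 under TGF-beta and 433.5 in PBS distal. With this probe set PBS local was the lowest and IL-13 the highest of the 6, and TGF-beta mouse 2 came close to IL-13. The other probe set past the filter had distal skin the lowest, at 205.9 against 229.3 in PBS local. It had mouse 2 at 411.6, against 563.2 under IL-13. The IL-13 difference was 1.11, with 1.20 from the other probe set past the filter, and 0.81 against PBS distal. It was under 2-fold at 0.88 with a larger offset of 165 and at 0.97 with the mean of its probe sets. The TGF-beta mice were at 0.22 and 0.92 above PBS local, a spread (SD 0.50, n = 2) nearly as large as their mean of 0.57, whereas the other probe set gave 0.82 and 0.77.

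Adm encodes adrenomedullin, a vasodilator peptide. Its signal was 144 in PBS local, 334 under IL-13, 168 under TSLP, 328 and 162 under TGF-beta and 90.1 in PBS distal. The IL-13 array and TGF-beta mouse 1 stood together, and the other 4 arrays were near or below the filter. Adm passed the filter in the IL-13 comparison through the IL-13 array alone, so its place among the 2-fold genes depends on that array. Its difference was 1.07 under IL-13, 1.05 in mouse 1 and 0.14 in mouse 2, and against PBS distal it was 1.62 under IL-13. With the offset of 165 the IL-13 difference was 0.69, under 2-fold.

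The angiogenic factor Vegfa had a signal of 240.5 in PBS local, 377 under IL-13, 360.1 under TSLP, 247 and 186 under TGF-beta and 286 in PBS distal. Both the IL-13 and the TSLP array were above the rest, at 0.59 and 0.53 over PBS local, and mouse 2 was the lowest. Ndrg1, a stress-responsive gene of differentiating epithelium, was at 1547.5 in PBS local, 2275 under IL-13, 2059 under TSLP, 1804 and 1847 under TGF-beta and 2028 in PBS distal. With this probe set all 5 other arrays were above PBS local, by 0.22 to 0.55. The gene's 3 other probe sets past the filter put mouse 2 below it, at -0.08, -0.11 and -0.16, and 1 of them put distal skin at -0.08.

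Bnip3, a mitophagy receptor, was at 1946 in PBS local, 2751 under IL-13, 2588 under TSLP, 2878 and 1751 under TGF-beta and 2589 in PBS distal. The TGF-beta mice were the highest and the lowest of the 6 arrays. Higd1a, a mitochondrial protein of the respiratory chain, ranged only from 2282 to 2872.5, with the highest value in distal skin.

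Hmox1, the heme oxygenase that answers to both hypoxia and oxidative stress, followed another order. Its signal was 1362 in PBS local, 1359 under IL-13, 1006 under TSLP, 1901 and 1867 under TGF-beta and 774 in PBS distal. Both TGF-beta mice were above every other array and distal skin was below every other array. Under TGF-beta it was higher by 0.47 and 0.45, and against PBS distal by 1.27 and 1.24, which made it the member at least 2-fold higher in both mice with that control.

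The transcription factor gene Hif1a kept within a narrow range. Its signal was 3679 in PBS local, 4568 under IL-13, 4024 under TSLP, 4534 and 4078 under TGF-beta and 3274 in PBS distal. PBS local was below the 4 cytokine arrays and distal skin was lower still, with differences from PBS local between -0.17 and 0.31. A second probe set past the filter put mouse 1 at -0.09 in place of 0.30.

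The prolyl hydroxylase genes Egln1 and Egln3 encode oxygen sensors that mark the factor for degradation and are themselves its targets. Egln3 was at 347 in PBS local, 524 under IL-13, 359.9 under TSLP, 389 and 322 under TGF-beta and 782 in PBS distal. Distal skin was above all 5 outlet arrays, with IL-13 second, and the difference of 1.11 from PBS local was 0.89 with the offset of 165. Egln1 was at 605 in PBS local, 704 under IL-13, 697 under TSLP, 721 and 688.5 under TGF-beta and 956 in PBS distal. Distal skin was again the highest and the outlet arrays lay within a narrow range, but the gene's other probe set past the filter gave -0.09 in distal skin, where the one used gave 0.64.

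**Figure D2:**
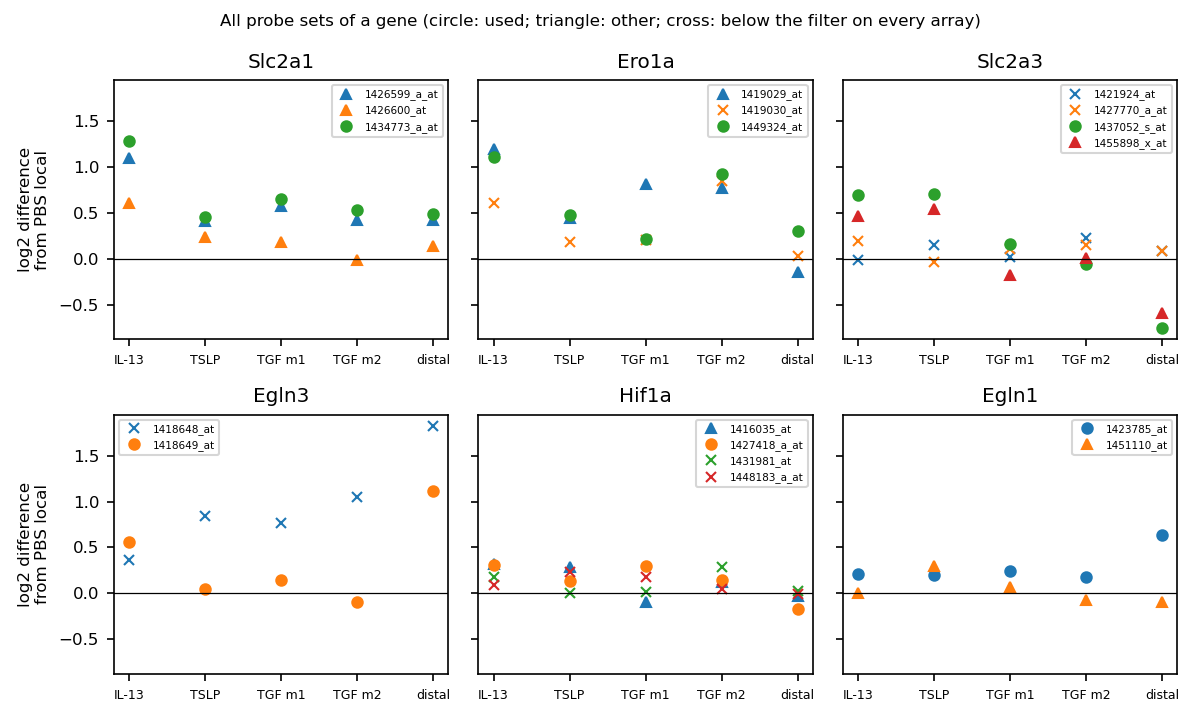
Difference from PBS local in log2(signal + 27.4) for every probe set of 6 members on the 5 other arrays (circle, the probe set used; triangle, another; cross, below the filter on every array). The Slc2a1 probe sets keep their order under IL-13 at 1.28, 1.10 and 0.61, and the Egln1 probe sets part in distal skin.

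Of the 20 other probe sets of members past the filter, in 12 genes, 18 had the sign of the probe set used under IL-13, 19 under TSLP, 14 in each TGF-beta mouse and 15 in distal skin.

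In the upper steps of glycolysis, down to the triose phosphates, the muscle isoform of phosphofructokinase had the largest difference from PBS local, in TGF-beta mouse 2. Pfkm was at 2446 in PBS local, 1359 under IL-13, 2887 under TSLP, 1885.5 and 1229 under TGF-beta and 2562.5 in PBS distal. The IL-13 array and mouse 2 were the lowest and TSLP the highest, and the IL-13 array was lower than the TSLP array by 1.07 on the log2 scale. Pfkm was the member at least 2-fold lower under IL-13 than under TSLP, of 27 past the filter, with 0 higher, where 0.82% of all genes were that much lower and 0.556% higher.

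The other isoforms did not share that order. The platelet isoform Pfkp was at 1121 in PBS local, 1108 under IL-13, 1248 under TSLP, 929.6 and 817 under TGF-beta and 1317.5 in PBS distal. The liver isoform Pfkl lay between 143 in PBS local and 195 under IL-13. The 2 TGF-beta mice were the lowest for Pfkp, whereas PBS local was the lowest for Pfkl.

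Skeletal muscle markers followed Pfkm on some arrays. Their sum was 99017 in PBS local, 85239 under IL-13, 83413 under TSLP, 113321 and 78331 under TGF-beta and 109581 in PBS distal, with none of the 9 below the filter. Mouse 2 had the lowest sum, as it had the lowest Pfkm, but TSLP, with the highest Pfkm, had the second lowest sum. Of single markers, the calcium pump Atp2a1 was at -0.99 under IL-13 and -0.92 in mouse 2, beside -0.84 and -0.98 for Pfkm, but at 0.06 under TSLP. The muscle enolase Eno3 was at -0.75 and -1.19 on the same arrays, the muscle phosphoglycerate mutase Pgam2 at -0.74 and -0.95, and the insulin-responsive transporter Slc2a4 at -0.89 and -1.26 (these 4 genes were picked after their values were seen). The myosin Myh4, at 0.38 and 0.99, and the actin Acta1, at 0.19 and 0.06, lay above 0 there. The part of muscle content in the glycolytic values was not tested.

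**Figure D3:**
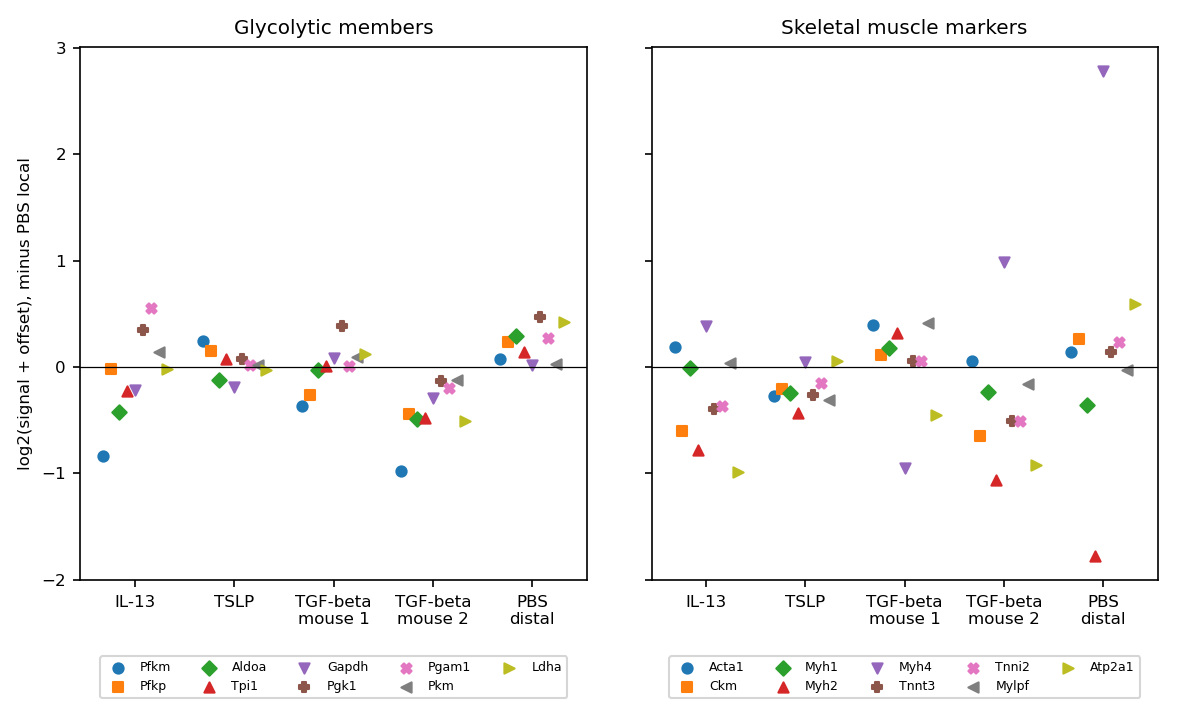
Difference from PBS local in log2(signal + 27.4) of 9 glycolytic members (left) and the 9 skeletal muscle markers (right) on the 5 other arrays, 1 point per gene and array. Pfkm, Aldoa and Tpi1 are below 0 under IL-13 and in TGF-beta mouse 2, as are Atp2a1, Ckm, Tnnt3, Tnni2 and Myh2, while Acta1 and Myh4 are above 0.

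Aldoa, the aldolase of muscle and most other tissues, was at 11467 in PBS local, 8593.5 under IL-13, 10582 under TSLP, 11198 and 8152 under TGF-beta and 14045 in PBS distal. Distal skin was the highest, and IL-13 and mouse 2 were the lowest. Its brain isoform Aldoc was at 211 in PBS local, 214 under IL-13, 221 under TSLP, 156 and 227 under TGF-beta and 378 in PBS distal. Distal skin stood alone above the outlet arrays, by 0.77 over PBS local. Tpi1, the triose phosphate isomerase, was at 6680.1 in PBS local, 5711 under IL-13, 7002 under TSLP, 6730.1 and 4797 under TGF-beta and 7376 in PBS distal, with mouse 2 again the lowest.

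Pfkfb3 makes the phosphofructokinase activator fructose 2,6-bisphosphate. Its signal was 373 in PBS local, 485 under IL-13, 713 under TSLP, 474 and 481 under TGF-beta and 504 in PBS distal. TSLP was the highest, PBS local the lowest, and the remaining 4 arrays were nearly equal. At 0.89, it was the largest difference of any member under TSLP.

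The hexokinases trap glucose in the cell. Hk2 was at 1315 in PBS local, 1327 under IL-13, 1351 under TSLP, 1099.9 and 878 under TGF-beta and 1329.6 in PBS distal. The 4 other arrays lay between 1315 and 1351 and both TGF-beta mice were below them, with a mean difference of -0.41 (SD 0.22, n = 2). Hk1 ranged from 561 in mouse 2 to 737 under TSLP.

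In the lower steps, no enzyme reached 2-fold on any array. Gapdh was at 11588.5 in PBS local, 9969 under IL-13, 10185 under TSLP, 12234 and 9467 under TGF-beta and 11789.9 in PBS distal. The TGF-beta mice again held both ends of its range. The pyruvate kinase gene Pkm lay between 1785 in mouse 2 and 2143 under IL-13. Pgk1, which makes the first ATP of the pathway, was at 4409 in PBS local, 5611 under IL-13, 4631 under TSLP, 5744 and 4032 under TGF-beta and 6116 in PBS distal. The TGF-beta mice lay on either side of PBS local. The phosphoglycerate mutase Pgam1 was at 1892 under IL-13 and between 1113 and 1547 elsewhere.

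Ldha, which turns pyruvate into lactate, was at 6634 in PBS local, 6525 under IL-13, 6493 under TSLP, 7193.5 and 4651 under TGF-beta and 8897.5 in PBS distal. Distal skin was the highest and mouse 2 the lowest, while IL-13 and TSLP equalled PBS local within 0.03 on the log2 scale. Pdk1 encodes a kinase that inhibits pyruvate dehydrogenase, the enzyme that feeds pyruvate carbon into the TCA cycle. Its signal was 748 in PBS local, 1009 under IL-13, 949.9 under TSLP, 833 and 841.5 under TGF-beta and 766.5 in PBS distal. With this probe set PBS local was the lowest, whereas the other probe set put distal skin at -0.17.

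**Figure D4:**
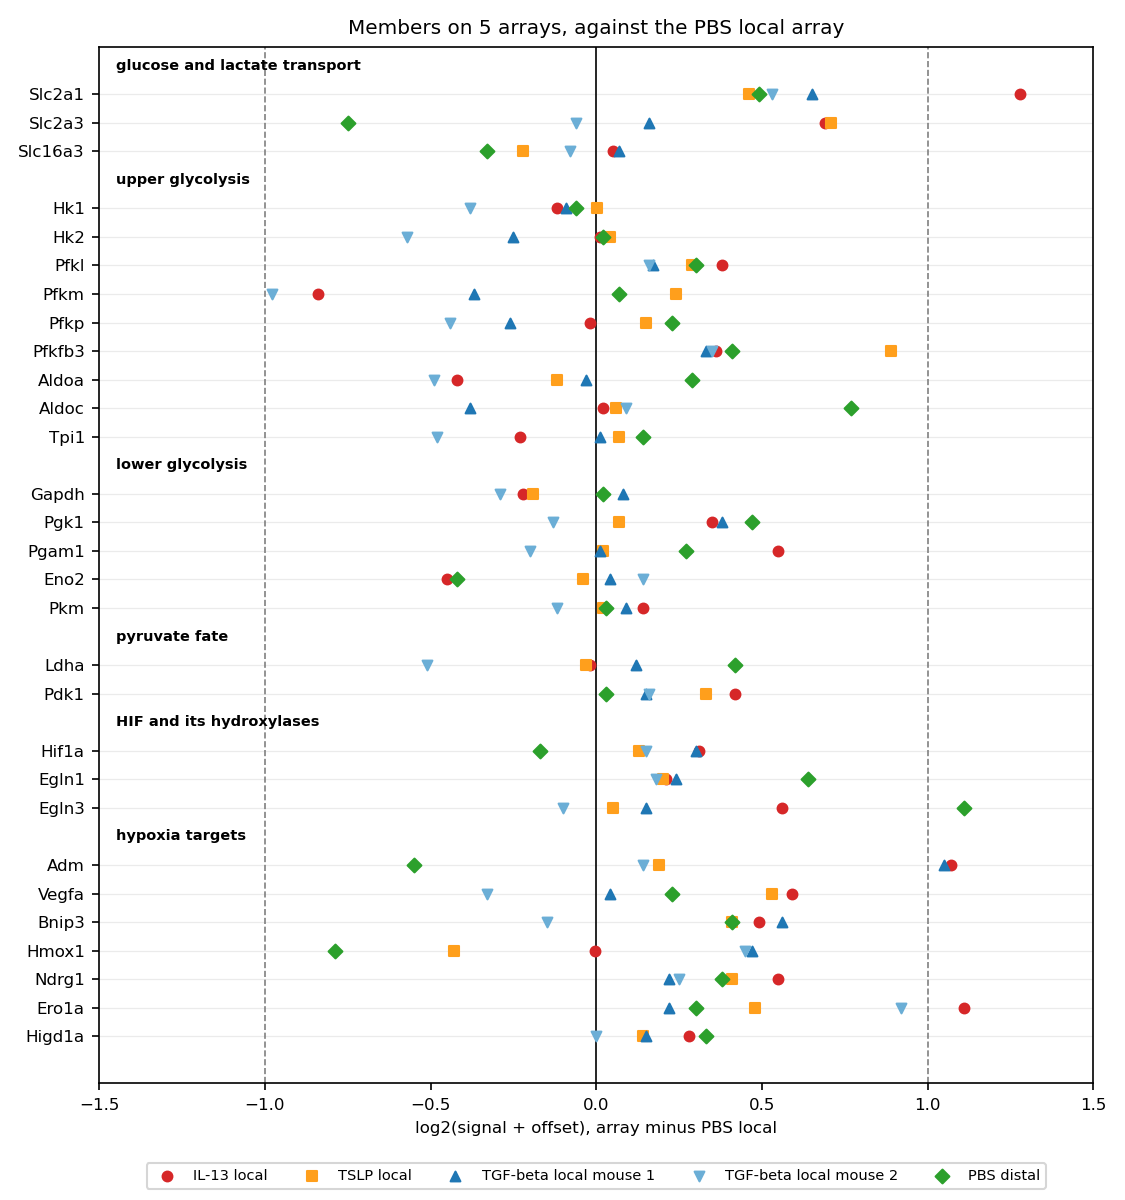
Difference from PBS local in log2(signal + 27.4) of the 29 members, grouped by role, on the 5 other arrays (1 point per array; dashed lines mark 2-fold). Slc2a1, Ero1a and Adm pass 2-fold under IL-13, Egln3 in PBS distal and Adm in TGF-beta mouse 1.

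TGF-beta against PBS local is the comparison with replicates, although the control has 1 array and the spread comes from the 2 mice. Of 26 members past the filter, 0 reached 2-fold in the same direction on the arrays of mouse 1 and mouse 2, where 0.181% of all genes were higher and 0.155% lower. limma over all 7742 genes past the filter called 0 members and 0.0% of genes, with a lowest adjusted p of 0.864. At an unadjusted p under 0.05 it held 2 members, both higher, where 4.57% of all genes lay. These were Slc2a1, higher by 0.59 (SE 0.17) in 2 of 2 mice at an unadjusted p of 0.0221, and Hmox1, higher by 0.46 (SE 0.16) in 2 of 2 mice at 0.0425, both with an adjusted p of 0.864 by limma. The other Slc2a1 probe sets gave 0.57 and 0.42 for mouse 1 and mouse 2, and 0.18 and -0.01. The median over the 29 members was 0.05, against -0.03 over all genes.

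The TGF-beta mice had different medians. Mouse 1 had a member median of 0.15 and mouse 2 one of -0.08, and mouse 1 alone had Adm at least 2-fold higher, where 0.357% of all genes were. Adm again passed the filter only through the array where it was high. Mouse 2 was the lowest of the 6 arrays for 15 of the 27 members past the filter, against 17.2% of all genes, and 10 of those 15 were glycolytic enzymes (Hk1, Hk2, Pfkm, Pfkp, Aldoa, Tpi1, Gapdh, Pgk1, Pgam1 and Pkm), the others being Ldha, Egln3, Vegfa, Bnip3 and Higd1a. The median SD between the mice was 0.19 over 26 members and 0.12 over all genes tested. Mouse 2 is also the array with the hair follicle signal and the lowest muscle sum given above, and their part in these values was not tested.

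Under TSLP, 0 of 27 members past the filter were at least 2-fold from PBS local, where 0.998% of all genes were higher and 0.446% lower. The member median was 0.13, against a median near 0 over all genes. Of the 29 members 23 lay above 0, where 6111 of all 12394 genes did. Pfkfb3, Slc2a3 and Vegfa led, and Hmox1, at -0.43, was the lowest. With PBS distal as the control, Slc2a3 was 2-fold higher at 1.46 and Egln3 2-fold lower at -1.06. limma on the same terms as for IL-13 called 0 members and 0.0% of genes, with 2 (Slc2a3 and Pfkfb3) at an unadjusted p under 0.05, where 3.99% of all genes were.

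**Figure D5:**
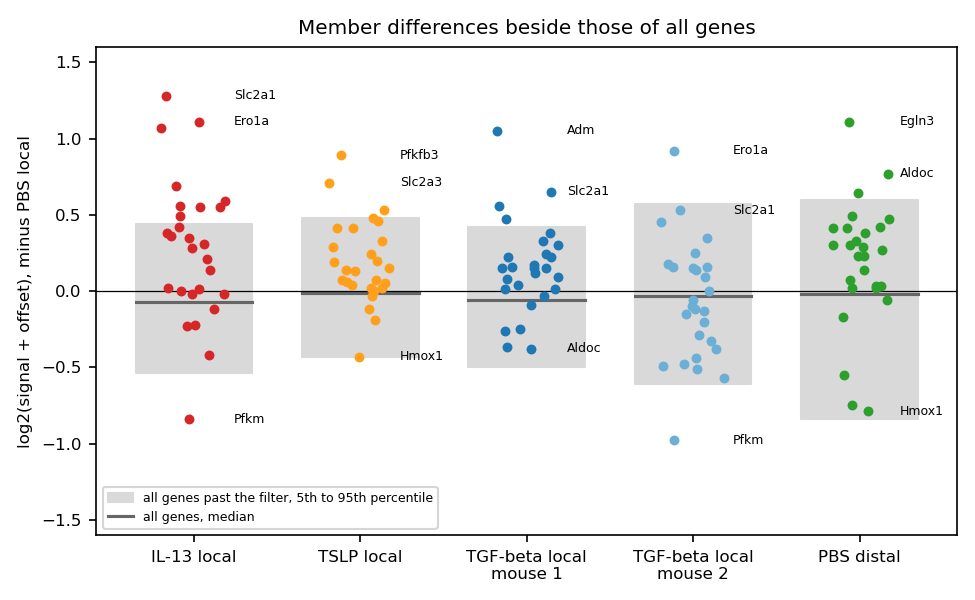
Difference from PBS local in log2(signal + 27.4) of the 27 members past the filter (points, spread sideways at random) beside all 7946 genes past it (grey box, 5th to 95th percentile; line, median). Under IL-13, 9 members lie above the 95th percentile of 0.44 and 1 below the 5th, while 4 lie above the same percentile of their own array under TSLP, 4 in TGF-beta mouse 1, 1 in mouse 2 and 3 in PBS distal.

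Across the 4 cytokine arrays, which share the PBS local control, PBS local was below all of them for 9 of 27 members, against 15.4% of all genes, and above all of them for 1, Aldoa, against 25.2%. The 9 were Slc2a1, Pfkl, Pfkfb3, Pdk1, Hif1a, Egln1, Adm, Ndrg1 and Ero1a. The count rests on 1 probe set per gene. Other probe sets past the filter put a cytokine array below PBS local for Ndrg1, Hif1a (mouse 1 at -0.09), Egln1 (mouse 2 at -0.07, IL-13 at -0.0011) and Slc2a1 (mouse 2 at -0.01). For Ndrg1 this was mouse 2, at -0.08, -0.11 and -0.16, and with 1 probe set also mouse 1, at -0.0014. The same control array enters each of these comparisons, so they are not independent of each other. IL-13 was the highest of the 6 arrays for 10 members, against 9.05% of all genes, namely Slc2a1, Pfkl, Pgam1, Pkm, Pdk1, Hif1a, Adm, Vegfa, Ndrg1 and Ero1a.

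Distal skin was higher than PBS local by at least 2-fold for Egln3 (1.11) and lower for 0 members, of 26 past the filter, where 0.788% of all genes were higher and 3.5% lower. The member median was 0.23, against -0.01 over all genes. Distal skin was above all 5 outlet arrays for 9 of 27 members, against 26.8% of all genes, and below them for 4, against 24.9%. Both shares are of the order of the background. The 9 were Pfkp, Aldoa, Aldoc, Tpi1, Pgk1, Ldha, Egln1, Egln3 and Higd1a, and the 4 were Slc2a3, Hif1a, Adm and Hmox1. The neutrophil sum was lowest in distal skin, where 6 of the 7 markers past the filter were at least 2-fold below PBS local. Of these 6, S100a9, Ngp, Camp, Lcn2 and Csf3r passed the filter through the PBS local array alone, so their place depends on that array. The other marker past the filter, Mmp9, was at 0.11. The sum of the 7 endothelial markers was also lowest in distal skin, at 1600, against 2341 or more on the outlet arrays. All 9 macrophage markers were below PBS local there, with a median of -0.46, and of the 3 erythroid markers Slc4a1 was at -2.79, Alas2 at -1.89 and Hba-a1 at 0.04, the last below the filter everywhere. Other lists were higher in distal skin. All 7 hair follicle, 6 keratinocyte and 5 adipocyte markers were above PBS local, with medians of 1.81, 0.35 and 0.46. Of the hair follicle markers 3 were past the filter, each through the distal array alone. The skeletal muscle markers had a median of 0.14, with Myh4 at 2.78 and Myh2 at -1.78, and the fibroblast markers one of -0.24. The part of these cells in the values of the members higher or lower in distal skin was not tested. limma on the same terms as for IL-13 called 0 members and 0.0263% of genes, with a lowest member adjusted p of 0.33, and 4 members (Slc2a3, Egln1, Egln3 and Hmox1) were at an unadjusted p under 0.05, where 10.9% of all genes were.

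Further genes of the same pathways were taken from fixed lists. Of 26 other hypoxia targets, 23 were measured. Past the filter were 19 under IL-13 and 18 each under TSLP, under TGF-beta and in distal skin. Under IL-13, TSLP and TGF-beta, 0 of these were at least 2-fold from PBS local. The medians over the 23 were 0.18, 0.22 and 0.03. In distal skin the collagen-modifying genes Plod1 (-1.07) and Lox (-1.47) were at least 2-fold lower. Lox was at 0.90 under IL-13, and Angptl4, a lipase inhibitor picked after its values were seen, was at 0.95 and 0.84 in the TGF-beta mice.

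Pyruvate dehydrogenase carries pyruvate carbon into the mitochondrial TCA cycle. Of 12 listed genes of the pyruvate dehydrogenase complex and its regulators 8 were measured, with a median of -0.40 under IL-13, and Pdk4, the kinase that rises in fasting, was at least 2-fold lower at -1.33. Of 15 measured TCA cycle genes 14 were below 0 under IL-13, with a median of -0.23, and 0 were 2-fold lower, where 7069 of all 12394 genes were below 0. In TGF-beta mouse 2 all 15 were below 0, also with a median of -0.23, where 6556 of all 12394 genes were below 0. The pyruvate dehydrogenase list had a median of -0.41 in mouse 2. Muscle markers had medians of -0.37 under IL-13 and -0.51 in mouse 2, and the 5 adipocyte markers -0.34 and 0.09. The part of these cells in the mitochondrial values was not tested. Under IL-13 the 13 other glycolysis genes had a median of -0.42, with 0 of the 10 past the filter at least 2-fold apart. The 7 pentose phosphate genes had one of 0.09. In mouse 2 these medians were -0.22 and 0.29. Eno3, Pgam2 and Slc2a4, given above beside the muscle markers, belong to these 13. In distal skin the gluconeogenic genes Pck1 (1.29) and Fbp2 (1.65) were at least 2-fold higher, of 4 past the filter, where 0.788% of all genes were. Fbp2 passed the filter through the distal array alone. The 11 other genes of the factor's own pathway and the 13 other heme and oxidative stress genes had medians between -0.13 and 0.08 on every comparison with PBS local. Past the filter were 5 of the 11 and, by comparison, 11 or 12 of the 13, and 0 of these were at least 2-fold apart.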

How the data were processed

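RNA was hybridised to 6 arrays, 1 per sample. The deposited intensities are linear signals, 1 per probe set and array, and MAS5 is the tool that the submitters' processing notes name. The notes as used here carry no version number. The table holds 22690 probe sets, and 0 per-sample columns were left unused. Of those that are no AFFX control, 20380 name 1 gene, 691 several and 1555 none here, and 20351 symbols were matched by gene number to RefSeq (GRCm38.p6). The 64 controls were left out, apart from those naming Gapdh, which has no other single-gene probe set.

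Signals were rescaled so that all arrays share 1 trimmed mean (2% left out at each end, 499.95 to 499.96 as deposited) and taken as log2(signal + 27.4), the offset being the 25th percentile of all values. The probe set with the highest mean stood for a gene. The test of TGF-beta used limma 3.58.1 (R 4.3.3, lmFit and eBayes with an intensity trend, 5 groups, 1 residual and 3.13 prior degrees of freedom, Benjamini-Hochberg threshold 0.05). The same fit was also run on simulated arrays, and its outcome is not given here. A size rule of 2-fold, in both mice for TGF-beta, stood beside the test. The single arrays are assumed to vary like the TGF-beta mice wherever that spread is borrowed. The number of arrays limits the precision. Alternatives changed the offset, normalization, filter, probe set and control.

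Members, lists and the rule for named genes were chosen with earlier results of these data known. That rule takes members at least 2-fold from PBS local and the extremes of each role. Other members were added, and so were the muscle genes, after their values were seen.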

Additional observations from a re-analysis of the deposited data

How the results depend on the processing

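Under IL-13 the count of 3 dropped to 1 (Slc2a1) with the offset at the median of 165, to 1 (Adm) when a gene's probe sets were averaged, and to 0 in limma with the error of the TGF-beta pair. For distal skin the count of 1 dropped to 0 at that offset and in limma. With PBS distal as the control array, the count was 1 for TGF-beta, 2 for TSLP and 2 for IL-13, the last being Slc2a3 and Adm. All 3 cytokine medians then lay below 0, at -0.17 under TGF-beta (0.05 with PBS local), -0.00089 under TSLP (from 0.13) and -0.0026 under IL-13, reversed from 0.28. The cause was not tested. Without TGF-beta replicate 1 or replicate 2 the count under TGF-beta was 0 or 1 (Adm), and the median ran from -0.08 to 0.15, on both sides of 0. The Slc2a1 difference under IL-13 ran from 0.61 to 1.31, and that of Egln3 in distal skin from 0.89 to 1.47. For TGF-beta against PBS local, limma called 0 members without a trend, after quantile normalization and without the filter. No paired analysis was possible because the replicate numbers name mice of the TGF-beta group alone. The ranges over the outlet and cytokine arrays and IL-13 against TSLP were computed in 1 setting.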

Other observations

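Fbp1, a gluconeogenic phosphatase outside the member list, had a signal of 1839 in TGF-beta mouse 2 and between 18.0 and 56.6 on the other 5 arrays, a difference of 5.11 from PBS local, against 0.16 in mouse 1. The hair follicle sum was likewise highest in mouse 2, at 37073. Next for both came IL-13 (Fbp1 56.6, sum 2222) and PBS distal (44.0 and 1244). The part of follicle content in the Fbp1 values was not tested. The muscle paralog Fbp2 was lowest in mouse 2, at 62.7, and highest in distal skin, at 509. Ddit4, a hypoxia and glucocorticoid target, was at 0.94 under TSLP and at 0.49 and 0.77 in the TGF-beta mice, but at 0.14 under IL-13. Plod2, a lysyl hydroxylase among the hypoxia targets, was at 0.59 under IL-13 and -0.95 under TSLP, a gap of 1.54 between these arrays. All 4 genes were picked after their values were seen, and limma called none of their differences from PBS local.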
